A study of Oryctolagus cuniculus with 12 samples.

Results

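Collagen chain genes were examined in conjunctiva of Japanese white rabbits in eyes with filtration surgery and in eyes with no operation. The genes were chosen by name, as rows of the gene table whose symbol is COL, a type number, A and a chain number, with at least 10 counts in at least 3 libraries. Of 20566 genes in the table, 42 had such a symbol and 39 met the count minimum, while COL9A1, COL10A1 and COL26A1 did not. The 39 genes comprised 11 fibrillar, 6 basement membrane, 8 FACIT and 14 other chains, and all 39 passed the filter on low counts and were tested. The table has no row named COL18A1, so that gene is not described under its symbol.

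The 12 libraries formed 4 groups of 3. The cont group was conjunctiva of left eyes that had no operation. The TL-3h, TL-3d and TL-14d groups were conjunctiva with the filtering bleb from right eyes, collected at 3 hours, at 3 days or at 14 days from trabeculectomy, in which aqueous humor is drained under the conjunctiva through a scleral flap. Every operation included mitomycin C, a DNA crosslinker used against scarring. The animals were female according to the labels. The methods of the study name a conjunctival injection of betamethasone and an antibiotic ointment for its own operations, but these libraries came from earlier work, and the sources do not state whether the same holds for them, nor the age of these animals. Surgery and mitomycin C were given together in every TL library and cannot be told apart, nor can the operated right eye and the control left eye. The labels do not say which animal each library came from, and p-values measure the spread between these libraries.

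Collagens are secreted proteins in which 3 alpha chains wind into a triple helix. Fibrillar collagens give connective tissue its tensile strength, and type III is laid down with type I in healing wounds. Type IV chains form the network of basement membranes, FACIT collagens sit on the surface of fibrils, and the remaining chains include the microfibrils of type VI, the anchoring fibrils of type VII under the epithelium, the hemidesmosomal chain XVII and the short chain network of type VIII. Scarring of the conjunctiva by newly made matrix is the usual reason that a filtering bleb closes.

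Total counts per library ranged from 27111348 to 38591425. Levels are given as CPM, the count relative to the library size after TMM scaling. The q given with a comparison is the p-value, adjusted by Benjamini-Hochberg, from the edgeR quasi-likelihood test over all 14835 genes tested, with a threshold of 0.05. A gene is said to pass, or to pass in no comparison, by this test on all 12 libraries unless another tool or setting is named. Comparisons between genes use FPKM, which the authors divided by transcript length. TL-14d replicate 1 stood apart from its group: the correlation of its log2 CPM over genes was 0.969 with the cont libraries and 0.914 with the other TL-14d libraries. TL-14d replicate 2 was also nearer another group, at 0.942 with TL-3d and 0.927 with its own. The main results at 14 days are given with and without replicate 1. As that library was singled out for its likeness to cont, leaving it out favours a difference from cont. Skeletal muscle transcripts were high in cont replicate 2 and TL-3d replicate 3, where the 4 measured muscle markers summed to 182 and 267 CPM, compared with 0.665 to 7.07 CPM in the other 10 libraries.

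Markers of several cell types differed between the groups. The 8 fibroblast markers, among them DCN and PDGFRA, summed to 2547 to 15213 CPM in cont, 13889 to 26285 in TL-3h, 447 to 6280 in TL-3d and 948 to 5302 in TL-14d. DCN was the largest part in TL-3h, at 9318, 17662 and 10917 CPM, and the list did not move together. PDGFRA was at 66.6, 123 and 310 CPM in cont and 132, 243 and 149 CPM in TL-3h. LUM was at 217, 374 and 1281 CPM in cont and 71.7, 422 and 2287 CPM in TL-3d. Of 10 basal epithelial markers, 7 had a row, and their sum was 4155 to 8173 CPM in cont, 4143 to 5490 in TL-3h, 5768 to 13849 in TL-3d and 8471 to 13346 in TL-14d. The 7 endothelial markers summed to 69.5 to 303 CPM in cont, 638 to 1262 in TL-3h, 312 to 573 in TL-3d and 93.5 to 304 in TL-14d. For pericytes and smooth muscle, 7 of 8 markers summed to 71.7 to 329, 241 to 406, 90.2 to 560 and 107 to 306 CPM in the same order of groups. The 5 measured leukocyte markers of 6 summed to 41.3 to 120 CPM in cont, 519 to 1190 in TL-3h, 516 to 632 in TL-3d and 40.5 to 241 in TL-14d. Of the further lists, 2 of 4 keratocyte markers had a row and were at 91.9 to 715, 476 to 1282, 57.6 to 326 and 124 to 490 CPM, and the 7 Schwann cell markers were at 20.9 to 30.8, 30.5 to 52.7, 11 to 15.8 and 10.1 to 27.1 CPM, with the myelin gene PMP2 at 0 in 10 libraries. In bulk tissue, fewer cells of a type and less RNA per cell cannot be told apart, and the part of these cell markers in the collagen results was not tested.

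The collagen share of the counts varied widely among replicates outside TL-3h. All rows named as collagen chains took 1.53%, 4.06% and 7.61% of the counts in cont replicates 1, 2 and 3. The share was 7.89%, 8.92% and 8.04% in the TL-3h libraries, 0.541%, 1.75% and 7.52% in TL-3d, and 3.11%, 1.88% and 7.21% in TL-14d. Every TL-3h library was thus above every cont library, while the TL-3d and TL-14d libraries overlapped with cont. The median SD of log2(CPM + 0.5) within a group was 1.20 for collagen genes in cont, 0.34 in TL-3h, 0.99 in TL-3d and 1.33 in TL-14d, over the 37 with a mean of at least 1 CPM. Over all 13253 genes at that level it was 0.23, 0.26, 0.21 and 0.32.

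**Figure D1:**
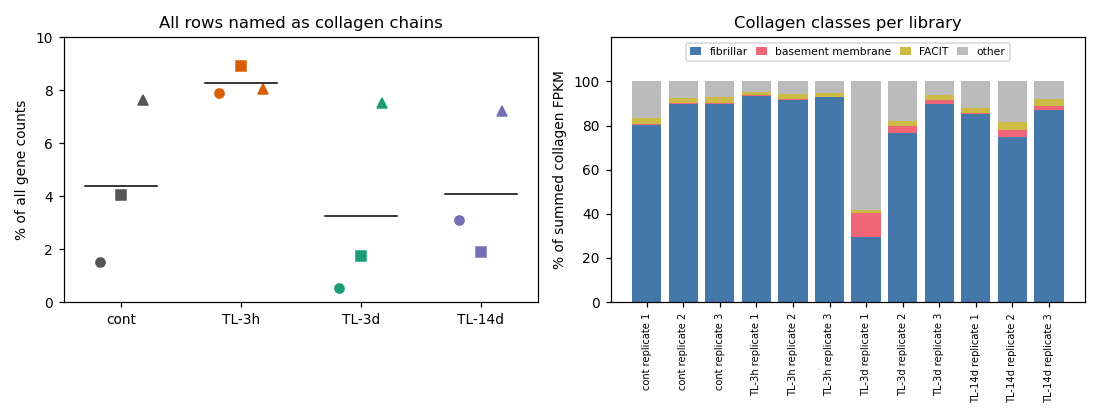
Left, percent of all gene counts taken by rows named as collagen chains, with 1 point per library (circle, square and triangle for replicates 1, 2 and 3) and a line at the group mean. Right, percent of the summed collagen FPKM in each class, with 1 bar per library. The 3 TL-3h libraries lie together between 7.89% and 8.92%, and TL-3d replicate 1 is the library in which fibrillar chains take the smallest part, 29.3%.

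By length-adjusted level, the same 3 genes led in every group. COL1A2, COL3A1 and COL1A1 had mean FPKM values of 2599, 2140 and 1873 in cont, and COL6A1 and COL17A1 came next at 202 and 194 FPKM. Fibrillar chains made up 80.3% to 90.0% of the summed collagen FPKM in cont and 91.7% to 93.5% in TL-3h. In TL-3d the fibrillar part was 29.3%, 76.7% and 89.8% in replicates 1, 2 and 3, and in TL-14d it was 85.2%, 74.6% and 87.1%. The basement membrane part was 0.276% to 0.501% in cont and 0.220% to 0.254% in TL-3h, compared with 10.9%, 3.08% and 1.75% in the TL-3d libraries and 0.299%, 3.22% and 1.89% in TL-14d.

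Across the 39 genes, few passed the test in any comparison. At 3 hours 1 collagen gene was higher and 0 were lower than in cont, beside 45.4% of all genes called in either direction and 23.2% called higher. At 3 days 3 were higher and 2 lower, which is 12.8% of the 39 beside 17.6% of all genes, of which 10.6% were higher and 7.0% lower. At 14 days 0 collagen genes passed, as did 0.0% of all genes. At 14 days 15 collagen genes had an unadjusted p-value under 0.05, beside 10.4% of all genes, and limma-trend called 0 and DESeq2 called 8, beside 2.49% of all genes for DESeq2. The median log2 fold change of the 39 genes was 0.79 at 3 hours, 0.03 at 3 days and 0.49 at 14 days, and the median of all genes was 0.02, -0.0018 and 0.02. The median log2 fold change at 3 hours was 1.05 for the 11 fibrillar chains, of which 10 were above 0, -0.14 for the 6 basement membrane chains, 0.94 for the 8 FACIT chains and 0.53 for the 14 others. At 3 days the medians of these classes were -0.33, 0.27, -0.88 and 0.30, and at 14 days 0.49, 0.87, 0.67 and 0.13. In the test of all 3 times together, 14 collagen genes passed (35.9%), beside 52.4% of all genes. The share of collagen genes called was below that of all genes in each comparison where any gene passed except TL-14d against TL-3d.

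**Figure D2:**
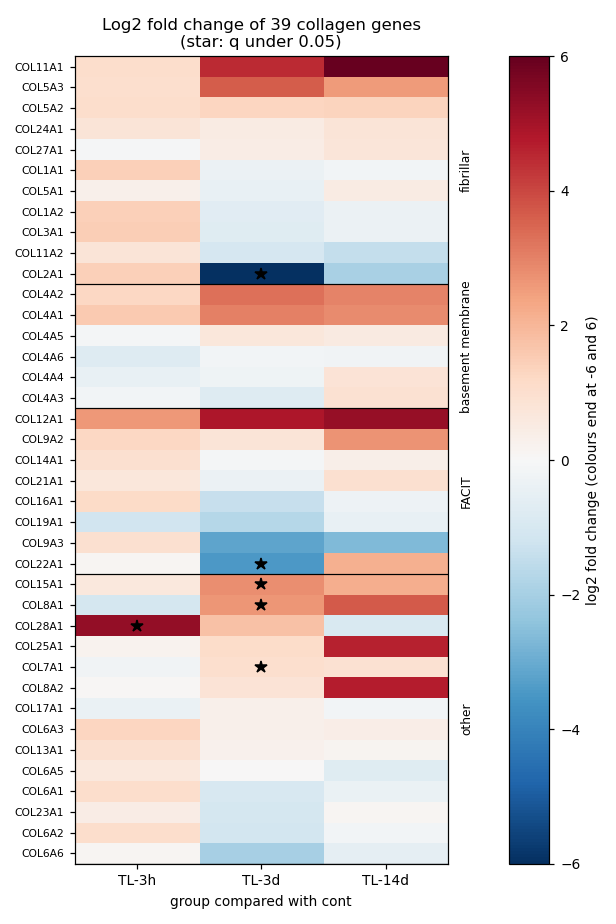
Log2 fold change of the 39 collagen genes (rows, by class) in each TL group compared with cont (columns), from the fit of all 12 libraries. Red is higher and blue lower than cont, colours end at -6 and 6, and a star marks a q under 0.05. The stars are COL28A1 at 3 hours and COL2A1, COL22A1, COL15A1, COL8A1 and COL7A1 at 3 days.

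The fibrillar chains of types I and III were high in all TL-3h libraries, but no difference from cont passed the test. COL1A1 (gene ID 100347598), which encodes the main chain of type I collagen, is annotated in OryCun2.0 at positions 37474894 to 37490691 of chromosome 19. Libraries held 2416, 8279 and 18606 CPM of it in cont, 22457, 29728 and 27030 in TL-3h, 342, 3452 and 19531 in TL-3d, and 5981, 3035 and 16898 in TL-14d. The TL-3h libraries lay above all cont libraries, and the TL-3d and TL-14d libraries overlapped with cont. The group means were 9767 ± 8197 (SD, n = 3) in cont and 26405 ± 3676 in TL-3h, and the log2 fold change was 1.43 (SE 1.17, q = 0.352). Replicates differed 7.7-fold in cont, 57.2-fold in TL-3d and 5.57-fold in TL-14d, but 1.32-fold in TL-3h. The other chain of type I, COL1A2 (chromosome 10, 34497959 to 34533742), was at 4327, 12404 and 23245 CPM in cont and 36153, 37613 and 33713 CPM in TL-3h (log2 fold change 1.43, q = 0.319). Its TL-3d libraries held 429, 3872 and 20499 CPM and its TL-14d libraries 9053, 3594 and 18261 CPM, both overlapping with cont. COL3A1 (chromosome 7, 129298041 to 129341606), the chain of type III collagen, was at 3636, 11225 and 23282 CPM in cont, 35664, 38141 and 33914 in TL-3h, 262, 3100 and 19450 in TL-3d, and 8709, 3651 and 17686 in TL-14d. Compared with cont it differed by 1.50 on the log2 scale in TL-3h (q = 0.331) and by -0.74 in TL-3d (q = 0.678). TL-3d replicate 1 had both the lowest COL1A1 level and the lowest sum of fibroblast markers of the 12 libraries, and the part of the fibroblast markers in these levels was not tested.

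**Figure D3:**
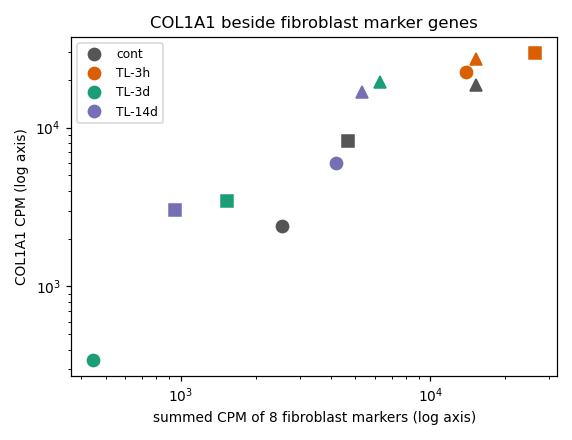
COL1A1 level against the summed level of 8 fibroblast markers in each of the 12 libraries, both in CPM on log axes, coloured by group, with circle, square and triangle for replicates 1, 2 and 3. TL-3d replicate 1 lies lowest on both axes (447 and 342 CPM) and TL-3h replicate 2 highest (26285 and 29728 CPM).

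Compared with TL-3h, type I and III chains were lower in all TL-3d libraries, with log2 differences of -1.76 for COL1A1, -2.12 for COL1A2 and -2.24 for COL3A1. None passed the test (q = 0.265, 0.161 and 0.167), and of 20 alternatives 2 called COL1A1 and 4 each called COL1A2 and COL3A1. TL-3d replicate 3, a library with muscle transcripts, was the highest of its group: without it the differences were -3.80, -4.06 and -4.41 and all 3 passed (q = 0.0426, 0.0244 and 0.0243).

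The type V chains, which start fibril formation with type I, differed from each other in their levels. COL5A1 was at 106, 259 and 583 CPM in cont and 16.1, 109 and 566 CPM in TL-3d, whereas COL5A2 was at 169, 356 and 1166 CPM in cont and 147, 869 and 3139 CPM in TL-3d. In TL-3h COL5A1 was at 334, 502 and 316 CPM and COL5A2 at 909, 1455 and 1161 CPM, and in TL-14d COL5A1 was at 283, 369 and 682 CPM and COL5A2 at 261, 1365 and 2616 CPM. Neither passed the test in any comparison. The FPKM ratio of COL5A1 to COL5A2 was 1.01 to 1.47 in cont, 0.548 to 0.740 in TL-3h and 0.222 to 0.363 in TL-3d, so that the 3 ranges did not overlap. In TL-14d it was 2.18, 0.544 and 0.525, with replicate 1 above cont and the others below. The transcript length is 3070 bases for the COL5A1 row and 6031 for COL5A2. A row without a COL symbol, LOC100340124, is annotated as collagen alpha-1(V) chain-like. Its means were 39.5 CPM in cont, 69.3 in TL-3h, 42.5 in TL-3d and 63.5 in TL-14d. Whether COL5A1 reads were split between these rows, which would affect the ratio, is not known. COL5A3, the third type V chain, was at 8.16, 20.2 and 57.5 CPM in cont and 60.8, 296 and 724 CPM in TL-3d, a log2 difference of 3.65 (SE 1.15, q = 0.0531). It was called in 4 of 20 alternatives, among them the replicate number as a block (3.51, q = 0.0329) and DESeq2 (q = 0.00160).

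**Figure D4:**
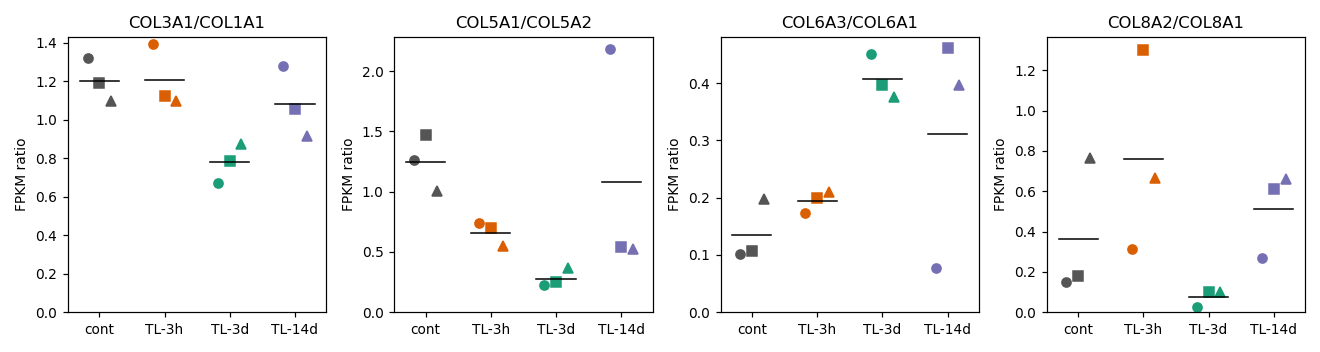
Ratio of the FPKM values of 2 chains in each library for 4 pairs of chains, with 1 point per library (circle, square and triangle for replicates 1, 2 and 3) and a line at the group mean. In TL-3d, COL3A1/COL1A1 (0.672 to 0.873), COL5A1/COL5A2 (0.222 to 0.363) and COL8A2/COL8A1 (0.0246 to 0.102) lie below all cont libraries and COL6A3/COL6A1 (0.375 to 0.451) above them.

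Ratios between other fibrillar chains also differed between groups. The FPKM ratio of COL3A1 to COL1A1 was 1.10 to 1.32 in cont and 1.10 to 1.39 in TL-3h, and 0.672 to 0.873 in TL-3d, below both. It was 0.917 to 1.28 in TL-14d. COL1A1 to COL1A2 was 0.551 to 0.790 in cont and 0.786 to 0.940 in TL-3d, and these ranges overlapped. The ratio of COL5A2 to COL1A1 was 0.0338 to 0.0551 in cont, 0.0318 to 0.0385 in TL-3h and 0.126 to 0.338 in TL-3d. In TL-14d it was 0.0342 to 0.354, overlapping with cont. With 3 libraries a group, the smallest p-value of an exact permutation test is 0.10, so the ratios, of which 11 were computed, are described by their ranges.

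Among the minor fibrillar chains, COL2A1 fell at 3 days and COL11A1 spanned a wide range at 14 days. COL2A1, the chain of type II collagen of cartilage and vitreous, is on unplaced sequence. Its level was 2.92, 9.98 and 67.0 CPM in cont, 4.15, 153 and 61.4 in TL-3h, 0.225, 0.0924 and 0.626 in TL-3d, and 16.5, 1.82 and 2.28 in TL-14d. All TL-3d libraries lay below all others, with a log2 fold change of -6.38 compared with cont (SE 1.76, q = 0.0361) and -7.84 compared with TL-3h (SE 1.86, q = 0.00836). The difference from TL-3h passed in all 20 alternatives, and that from cont in 11 of 20, being lost when 1 library was left out in 7 of the 12 cases. With 1 library left out, the difference from cont ranged from -7.32 to -4.35 and that from TL-3h from -8.77 to -6.65. COL11A2 (chromosome 12, 23591298 to 23618581), a chain of type XI collagen, was at 2.69, 8.13 and 4.94 CPM in TL-3h and 1.45, 1.42 and 1.79 CPM in TL-3d, a log2 difference of -1.76 (SE 0.45, q = 0.0119), which was lost without TL-3h replicate 2 (q = 0.0536). COL11A1 (chromosome 13, 61054050 to 61262804) was at 0.142, 1.20 and 5.04 CPM in cont and 0.400, 1.60 and 141 CPM in TL-3d. In TL-14d it was at 0.303, 285 and 1509 CPM, so that replicates 2 and 3 lay above every other library and replicate 1 within the cont range. The log2 fold change at 14 days was 8.13 (SE 2.87, q = 0.408), and without TL-14d replicate 1 it was 8.72 (q = 0.0795), while DESeq2 with all libraries called it (q = 0.00494). Of 7 cartilage markers, 5 had a row, and their sum, most of it SOX9, was 69.9 to 122 CPM in cont, 86.1 to 133 in TL-3h, 89.0 to 131 in TL-3d and 102 to 161 in TL-14d. The cartilage genes ACAN and MATN3 were at 0 to 0.125 CPM in cont. In TL-14d ACAN was at 0.0336, 3.34 and 14.6 CPM and MATN3 at 0, 0.679 and 26.7 CPM. HAPLN1 was at 1.11, 2.09 and 6.15 CPM in TL-14d, compared with 0.142 to 3.21 CPM in cont. MATN1 was at 0 CPM in all TL-14d libraries, and SOX9 was at 100, 155 and 102 CPM there, compared with 66.7 to 120 CPM in cont. COL24A1 and COL27A1, the remaining fibrillar chains, passed in no comparison, but COL24A1 was called at 3 hours with the replicate number as a block (1.26, q = 0.0241).

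The type IV chains of the common basement membrane, COL4A1 and COL4A2, lay higher in all TL-3h and TL-3d libraries than in all cont libraries, without passing the test in either comparison. Their genes stand head to head on chromosome 8, with COL4A1 on the minus strand from 111524913 to 111654797 and COL4A2 on the plus strand from 111654828 to 111791972. COL4A1 was at 14.1, 53.4 and 124 CPM in cont, 172, 196 and 193 in TL-3h, 293, 324 and 968 in TL-3d, and 23.0, 377 and 978 in TL-14d. COL4A2 was at 6.17, 27.0 and 52.7 CPM in cont, 70.9, 71.9 and 63.0 in TL-3h, 163, 159 and 528 in TL-3d, and 12.2, 189 and 464 in TL-14d. TL-14d replicate 1 was within the cont range for both genes, and the other TL-14d libraries were above it. At 3 days the log2 fold changes were 3.05 (SE 1.13, q = 0.0832) and 3.31 (SE 1.12, q = 0.0652). Without TL-14d replicate 1, which enters the estimate of the spread, both passed at 3 days (q = 0.0229 and 0.0169), and 11 collagen genes were then called at 3 days, beside 25.0% of all genes. Both also passed at 3 days with the replicate number as a block (q = 0.0352 and 0.0343) and with DESeq2 (q = 0.00984 and 0.00414). The summed endothelial markers, whose cells make type IV collagen, were higher in all TL-3h and TL-3d libraries than in every cont library. Of these markers PECAM1 alone lay above all cont libraries in TL-3d, at 170, 196 and 221 CPM compared with 5.91 to 136 CPM. KDR was at 21.0, 24.6 and 10.2 CPM in TL-3h and 46.3, 19.4 and 32.8 CPM in cont. The part of these markers in the result was not tested. The FPKM ratio of COL4A1 to COL4A2 was 2.32 to 2.93 in TL-3h, above its range of 1.89 to 2.26 in cont and of 1.72 to 1.95 in TL-3d, and 1.80 to 2.02 in TL-14d.

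The remaining type IV chains had other patterns. COL4A3 and COL4A4, which form the basement membrane network of kidney glomeruli and some epithelia, lie on chromosome 7 in opposite directions, 77876 bases apart in the table. COL4A3 was at 5.25, 3.73 and 4.09 CPM in cont, 2.77, 2.12 and 2.70 in TL-3d, and 6.25, 7.88 and 10.4 in TL-14d. All 3 TL-14d libraries lay above cont and all 3 TL-3d libraries below it, and the rise from TL-3d to TL-14d passed the test, with a log2 difference of 1.69 (SE 0.26, q = 0.0243). COL4A4 was at 12.1, 8.90 and 9.96 CPM in cont, 8.24, 7.27 and 10.1 in TL-3d, and 12.7, 19.7 and 22.5 in TL-14d, a rise from TL-3d by 1.10 on the log2 scale (SE 0.23, q = 0.0444). These 2 genes and the FACIT gene COL22A1 were the 3 collagen genes called between TL-3d and TL-14d, all higher at 14 days, beside 2.24% of all genes in either direction and 0.647% higher. COL4A4 overlaps RHBDD1, which is on the other strand. The call of COL4A4 was lost in 14 of 20 alternatives, 10 of them with 1 library left out, and that of COL4A3 in 6. Without TL-14d replicate 1 the rise was 1.85 for COL4A3 (q = 0.0383) and 1.31 for COL4A4 (q = 0.0396). Without TL-3d replicate 1, TL-3d replicate 2 or TL-14d replicate 3, 0 collagen genes were called between these groups, and of all genes 2, 0 and 2 were called in those fits, compared with 332 in the fit of all libraries. COL4A5 and COL4A6, neighbours on chromosome X, passed in no comparison, and COL4A6 was at 13.9, 10.7 and 16.5 CPM in TL-3h, below its cont levels of 18.8, 33.0 and 19.6 CPM (log2 fold change -0.79, q = 0.0647, called in 4 of 20 alternatives).

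FACIT chains differed widely among themselves. COL12A1 (gene ID 100009174, chromosome 12, 61958742 to 62087011), which binds to type I fibrils in tissue under tension, was at 10.1, 8.13 and 17.5 CPM in cont. Its level was 36.4, 102 and 76.1 CPM in TL-3h, 39.7, 164 and 821 in TL-3d, and 6.19, 272 and 1073 in TL-14d. All TL-3h and TL-3d libraries lay above all cont libraries, whereas TL-14d replicate 1 lay below them. The log2 fold change was 2.59 (SE 1.40, q = 0.161) at 3 hours, 4.85 (SE 1.55, q = 0.0562, called in 3 of 20 alternatives) at 3 days, and 5.24 (SE 1.58, q = 0.357) at 14 days. Without TL-14d replicate 1 it was 5.82 at 14 days and passed (q = 0.0314). The deposited table of transcripts divides COL12A1 into 4 transcripts, of which the shortest, of 7019 bases, took 79.5%, 72.1% and 86.1% of the transcript counts in cont. The share was 53.7%, 64.4% and 62.4% in TL-3h, below all cont libraries, and 63.0%, 70.6% and 77.8% in TL-3d and 81.0%, 73.8% and 75.6% in TL-14d, where the ranges overlapped with cont. COL14A1, a related chain of resting connective tissue, was at 172, 326 and 1064 CPM in cont and 22.1, 278 and 1130 CPM in TL-3d, with 885, 1150 and 961 CPM in TL-3h and 305, 244 and 1457 CPM in TL-14d (at 3 days log2 fold change -0.13, q = 0.947).

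COL16A1, a minor FACIT chain, was at 859, 1269 and 875 CPM in TL-3h and 21.0, 79.8 and 421 CPM in TL-3d, lower in all TL-3d libraries. The log2 difference was -2.53 (q = 0.0616), which 5 of 20 alternatives called, with -4.31 (q = 0.00659) without TL-3d replicate 3.

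COL22A1 (chromosome 3, 154292207 to 154555735), a chain of tissue junctions such as that of muscle and tendon, was lowest at 3 days. It was at 4.15, 4.73 and 3.96 CPM in cont, 6.84, 2.99 and 4.10 in TL-3h, 0.125, 0.154 and 0.911 in TL-3d, and 3.03, 39.7 and 13.2 in TL-14d. The TL-3d libraries lay below all others, with log2 differences of -3.42 from cont (SE 0.96, q = 0.0376) and -3.54 from TL-3h (SE 0.97, q = 0.0163). From TL-3d to TL-14d it rose by 5.55 on the log2 scale (SE 1.04, q = 0.0339). The difference from cont was lost in 8 of 20 alternatives, 7 of them with 1 library left out, that from TL-3h in 2 and the rise to TL-14d in 9. With 1 library left out, these values ranged from -4.91 to -2.99, from -5.02 to -3.11 and from 4.34 to 7.03. Without TL-14d replicate 1 the rise was 6.05 (q = 0.0383). In the muscle-containing TL-3d replicate 3 it was higher than in the other TL-3d libraries, but below cont. Cartilage-type COL9A3 was at 8.35, 48.2 and 90.2 CPM in cont and 0.924, 1.88 and 13.6 CPM in TL-3d, a log2 difference of -3.16 with overlapping libraries (q = 0.148, called by DESeq2 with q = 0.0384). In TL-3h it was at 60.0, 154 and 69.6 CPM, above all TL-3d libraries. The log2 difference of TL-3d from TL-3h was -4.11 (q = 0.0571), which 7 of 20 alternatives called. COL9A2, at 0.451 to 0.828 CPM in cont, was at 0.504, 8.75 and 3.42 CPM in TL-14d (q = 0.346, and q = 0.0111 without replicate 1).

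Among the other chains are 2 of the epithelial attachment, COL7A1 and COL17A1. Replicates in cont differed 1.11-fold in COL7A1, which rose at 3 days, and 1.64-fold in COL17A1. COL7A1 (gene ID 100356561, chromosome 9, 16264230 to 16293878), the chain of anchoring fibrils, was at 215, 207 and 231 CPM in cont and 174, 210 and 178 CPM in TL-3h. In TL-3d it was at 349, 563 and 415 CPM, above all cont and TL-3h libraries. The log2 fold change was 1.02 compared with cont (SE 0.26, q = 0.0280) and 1.24 compared with TL-3h (SE 0.26, q = 0.00465). The difference from TL-3h passed in all 20 alternatives, and that from cont was lost when any 1 of cont replicates 1, 2 and 3 or TL-3d replicates 1 and 2 was left out. In TL-14d it was at 253, 520 and 460 CPM, above all cont libraries (log2 fold change 0.92, q = 0.346, and 1.17 with q = 0.0164 without replicate 1). COL17A1, the hemidesmosomal chain, was at 1665, 1088 and 1013 CPM in cont and 2299, 1615 and 783 CPM in TL-3d (log2 fold change 0.32, q = 0.606). It was at 840.0 to 1082 CPM in TL-3h and 784 to 1736 CPM in TL-14d, and passed in no comparison. Basal epithelial markers summed to 13849, 12763 and 5768 CPM in TL-3d and 8173, 6795 and 4155 CPM in cont, so that TL-3d replicate 3 lay within the cont range. The members of the list did not move together: KRT5 was at 9070, 8648 and 3596 CPM in TL-3d and 2695, 1937 and 1258 CPM in cont, whereas KRT15 was at 159, 219 and 437 CPM in TL-3d and 2743, 2470 and 1448 CPM in cont. TP63 overlapped between these groups, and the part of these markers in the result was not tested.

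The type VIII chains, which build the sheet-like matrix of Descemet membrane and of vessel walls, differed from each other at 3 days, when COL8A1 passed the test and COL8A2 did not. COL8A1 (chromosome 14, 120913933 to 121077408) was at 25.6, 32.2 and 17.3 CPM in cont and 18.0, 8.63 and 10.1 CPM in TL-3h. It was at 103, 123 and 246 CPM in TL-3d, above all cont libraries, a log2 fold change of 2.65 (SE 0.82, q = 0.0496) that only 4 of 20 alternatives called. Compared with TL-3h it was higher by 3.68 (SE 0.86, q = 0.00759), and all 20 alternatives called this. In TL-14d it was at 28.7, 430.2 and 493 CPM, with replicate 1 within the cont range. COL8A2, its partner chain on unplaced sequence, was at 4.32, 6.53 and 15.1 CPM in cont, 2.87, 14.2 and 28.0 in TL-3d and 8.74, 299 and 368 in TL-14d. Its log2 fold change at 3 days was 0.80 (q = 0.622), with overlapping libraries. Replicates 2 and 3 of TL-14d lay above every library of the other groups. At 14 days neither chain passed (q = 0.346 for both), whereas DESeq2 called both (q = 0.000457 for COL8A1 and 0.000679 for COL8A2) and so did the fit without TL-14d replicate 1 (log2 fold change 4.20, q = 0.00416 for COL8A1 and 5.27, q = 0.0159 for COL8A2). The FPKM ratio of COL8A2 to COL8A1 was 0.148 to 0.765 in cont, 0.0246 to 0.102 in TL-3d and 0.268 to 0.658 in TL-14d.

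**Figure D5:**
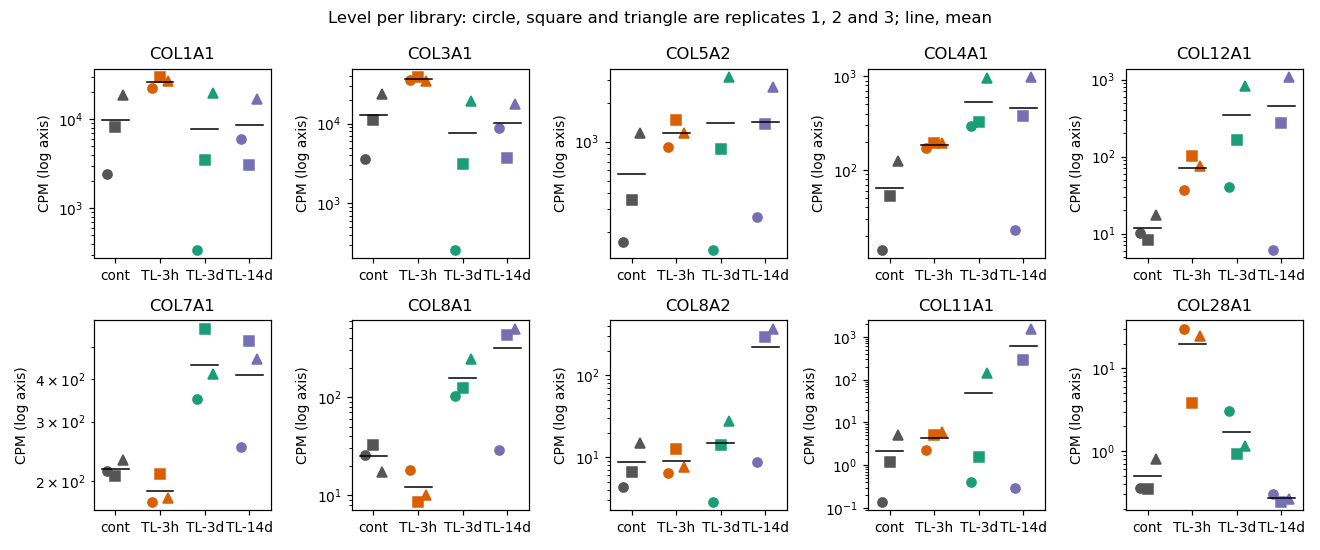
Level of 10 collagen genes in each library, in CPM on a log axis, with circle, square and triangle for replicates 1, 2 and 3 and a line at the group mean. COL12A1, COL4A1, COL8A1, COL8A2 and COL11A1 show 2 TL-14d libraries above every cont library and 1 (replicate 1) no higher than the highest cont library, and COL28A1 is highest in TL-3h.

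COL28A1 was the collagen gene called at 3 hours. This gene (gene ID 100350085, chromosome 10, 31081945 to 31273575) encodes a chain related to type VI that is found around peripheral glia. It was at 0.356, 0.350 and 0.803 CPM in cont, 30.0, 3.86 and 24.9 in TL-3h, 3.07, 0.924 and 1.14 in TL-3d, and 0.303, 0.245 and 0.260 in TL-14d. The TL-3h libraries lay above all others, with a log2 fold change of 5.27 compared with cont (SE 0.82, q = 0.000652), and the level in TL-3d was lower by 3.51 than in TL-3h (SE 0.75, q = 0.00471). Both calls held in all 20 alternatives. Schwann cell markers summed to 30.5 to 52.7 CPM in TL-3h and 20.9 to 30.8 CPM in cont, and their part in the result was not tested. The gene overlaps no other gene of the table.

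The type VI chains, which form beaded microfibrils around cells, passed in no comparison. COL6A1 was at 209, 453 and 1104 CPM in cont, 1049, 1558 and 1024 in TL-3h, and 37.0, 201 and 675 in TL-3d, and COL6A2 was at 179, 487 and 1126 CPM, 920, 1422 and 1366 CPM, and 29.2, 155 and 664 CPM. In TL-14d COL6A1 was at 541, 197 and 620 CPM and COL6A2 at 506, 253 and 845 CPM, overlapping with cont. COL6A3 was at 59.5, 137 and 613 CPM in cont, 515, 882 and 607 in TL-3h, and 47.2, 226 and 715 in TL-3d, and 118, 256 and 694 in TL-14d. The FPKM ratio of COL6A3 to COL6A1 was 0.101 to 0.197 in cont and 0.375 to 0.451 in TL-3d, without overlap, and 0.0770, 0.461 and 0.396 in TL-14d. COL6A2 to COL6A1 was 0.703 to 0.880 in cont and 0.630 to 0.806 in TL-3d, with overlap. Compared with TL-3h, all TL-3d libraries were lower in COL6A1 (log2 difference -1.99, q = 0.111) and COL6A2 (-2.13, q = 0.112), and 5 of 20 alternatives called each. Without TL-3d replicate 3 the differences were -3.34 (q = 0.0244) and -3.74 (q = 0.0186). In the same comparison COL6A3 and COL6A6 were each called in 1 alternative and COL6A5 in 2. At 3 hours COL6A3 had a log2 fold change of 1.31 (q = 0.338), and the fit with the replicate number as a block called it (2.19, q = 0.0195).

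COL15A1 (chromosome 1, 14170061 to 14279952), a multiplexin of vessel and nerve basement membranes, was at 10.2, 27.1 and 53.6 CPM in cont, 41.7, 57.3 and 40.0 in TL-3h, 116, 134 and 372 in TL-3d, and 23.1, 202 and 185 in TL-14d. The TL-3d libraries lay above all cont and TL-3h libraries, and the log2 fold change at 3 days was 2.77 (SE 0.83, q = 0.0454), which 9 of 20 alternatives called. With 1 library left out, the value for COL15A1 ranged from 2.05 to 3.46. At 14 days its log2 fold change was 2.18 (q = 0.422), and without TL-14d replicate 1 it was 2.68 (q = 0.0531). COL23A1 (chromosome 3, 58330673 to 58640681), a transmembrane collagen, was at 5.84, 5.68 and 3.44 CPM in TL-3h and 1.65, 1.54 and 2.11 CPM in TL-3d, lower by 1.50 on the log2 scale (SE 0.34, q = 0.00682) in all 20 alternatives. COL25A1, another transmembrane chain, was at 0.600 to 1.35 CPM in cont and at 0.538, 39.5 and 31.8 CPM in TL-14d (log2 fold change 4.60, q = 0.351, and q = 0.0241 without replicate 1). COL6A5, COL6A6, COL13A1, COL19A1 and COL21A1 passed in no comparison.

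Between TL-3h and TL-3d, 7 collagen genes were called, 2 higher (COL7A1 and COL8A1) and 5 lower (COL22A1, COL2A1, COL11A2, COL28A1 and COL23A1), beside 37.3% of all genes, of which 18.4% were higher and 19.0% lower. Counts normalized by library size alone gave 8 higher and 5 lower, beside 34.2% of all genes higher and 8.31% lower. This scaling lowered the median of all genes at 3 hours from 0.02 to -0.47 on the log2 scale, and collagen changes at 3 hours are therefore relative to a typical gene. The TL-3h against cont call count was then 1 higher and 3 lower, beside 12.7% of all genes higher and 38.2% lower.

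The 14-day comparison turned on 1 library. Without TL-14d replicate 1, which leaves 2 libraries, 8 collagen genes were called, all higher than in cont: COL4A2, COL4A4, COL7A1, COL8A1, COL8A2, COL9A2, COL12A1 and COL25A1. In that fit 4.74% of all genes were called, 3.51% higher. At 3 days DESeq2 called 12 collagen genes, beside 30.3% of all genes. At 14 days DESeq2 with all libraries called 8 collagen genes as well, all higher, beside 1.97% of all genes higher. COL4A4, COL8A1, COL8A2, COL9A2, COL12A1 and COL25A1 were called by both, while COL4A3 and COL11A1 were called by DESeq2 alone of these 2. Because TL-14d replicate 1 was singled out for its likeness to cont, the fit without it favours a difference and is no independent support. Leaving out TL-14d replicate 2 or replicate 3 instead gave 0 collagen calls, beside 0 and 1 of all genes.

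Among genes that modify, export, cut, link and bind collagen, 39 of 48 listed genes were tested. At 3 hours 4 were higher and 1 was lower than in cont, beside 45.4% of all genes called. At 3 days 1 was higher and 1 lower, beside 17.6% of all genes, and at 14 days 0 were called, as for all genes. These shares of the 39 genes were below those of all genes at 3 hours and 3 days. The median log2 fold change of the 39 genes was 0.70, 0.35 and 0.37 at these times. By list, the calls at 3 hours were 1 higher of 12 genes of prolyl and lysyl hydroxylation and 3 higher and 1 lower of 8 collagen receptors, and those at 3 days were 1 lower of the 12 and 1 higher of 5 crosslinking genes. None of 6 genes of chaperoning and export or of 8 genes of propeptide removal passed at any of these times. ITGA2, the alpha chain of the integrin that binds type I collagen on epithelium and platelets, was at 52.7, 67.5 and 44.9 CPM in cont and 413, 454 and 521 CPM in TL-3h (log2 fold change 3.07, SE 0.54, q = 0.00128). ITGA10, another collagen-binding integrin chain, was higher by 1.59 (q = 0.00439) at 3 hours, and PPIB, a prolyl isomerase of the collagen-folding complex, by 0.87 (q = 0.0209).

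At 3 days COLGALT2, which adds galactose to hydroxylysine, was lower, at 0.325, 0.339 and 1.11 CPM compared with 1.76, 2.45 and 3.91 CPM in cont (log2 fold change -2.19, SE 0.54, q = 0.0246). LOXL4, a lysyl oxidase that crosslinks collagen, was higher, at 80.6, 117 and 87.2 CPM compared with 8.88, 14.1 and 19.4 CPM (log2 fold change 2.75, SE 0.82, q = 0.0448). Over the alternatives q reached 0.149 for LOXL4 and 0.0920 for COLGALT2 at 3 days and 0.202 for PPIB at 3 hours, so these calls were not made in every alternative. ADAMTS14, a propeptidase, had a log2 fold change of 4.06 with q = 0.0586. At 14 days the lowest q values were those of LOXL4 (log2 fold change 3.12, q = 0.346), PLOD2, a lysyl hydroxylase (2.86, q = 0.346), and P4HA3, a prolyl hydroxylase chain (3.95, q = 0.364). In these genes too TL-14d replicate 1 was near cont, as LOXL4 was at 12.5, 278 and 77.2 CPM and PLOD2 at 28.1, 345 and 163 CPM in TL-14d, compared with 15.3 to 36.6 CPM of PLOD2 in cont.

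Counted by overlap alone, 8 collagen genes were higher and 2 lower in all TL-3h than in all cont libraries, which is 25.6% of the 39 beside 57.3% of all genes. At 3 days 9 were higher and 4 lower (33.3% beside 45.5%), and at 14 days 3 were higher and 2 lower (12.8% beside 11.1%). The 3 that were higher in every TL-14d library, replicate 1 included, were COL4A3, COL4A4 and COL7A1. The 3 comparisons with cont share the cont libraries and are not independent.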

How the data were processed

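RNA-seq of rabbit conjunctiva was analysed from the tables the authors deposited: estimated counts per gene and per transcript, and FPKM values. The submitters' processing notes name STAR 2.6.0c and OryCun2.0, and the labels describe a stranded mRNA library. Whether reads were counted by strand is not given in the sources used here. Of the deposited gene count values 23.4% were fractions, and estimated counts were rounded, although the plan had assumed whole counts. After filterByExpr, which kept 14835 of 20566 genes, and TMM scaling, all 12 libraries were fitted together with the edgeR 4.0.16 quasi-likelihood test in R 4.3.3, unpaired, with Benjamini-Hochberg adjustment and a threshold of 0.05. CPM was computed from the counts, and the FPKM values the authors deposited were used for levels between genes. A count of 3 corresponds to 0.0777 to 0.111 CPM in these libraries. DESeq2 1.42.0, limma-trend (limma 3.58.1), other scalings, no filter, the replicate number as a block, only the groups compared and each library left out were alternatives. Scripts were tested on simulated data, and no replicates were copies of each other.

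Collagen genes and lists were chosen with earlier results of these data known. Values are given for a list of 17 chains, and in each comparison for the 5 largest rises and 5 largest falls past the threshold. The values of COL4A6, COL5A3, COL8A2, COL9A2, COL9A3, COL11A1, COL16A1 and COL25A1, and the ratios, were chosen for print after they were seen. Of the pathway lists, the 3 genes with the lowest q in each comparison with cont are named.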

Additional observations from a re-analysis of the deposited data

Results flagged for a closer look

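The effect on 7 collagen genes differed between 3 hours and 3 days by the edgeR test of TL-3d against TL-3h. This is 17.9% of the 39, below the 37.3% of all genes called in that comparison. The log2 difference was -1.50 for COL23A1, -3.54 for COL22A1, 1.24 for COL7A1, -3.51 for COL28A1, -1.76 for COL11A2, 3.68 for COL8A1 and -7.84 for COL2A1. Between 3 days and 14 days the effect differed for COL22A1 (5.55), COL4A4 (1.10) and COL4A3 (1.69), which is 7.69% of the 39 beside 2.24% of all genes. These calls were lost in 9, 14 and 6 of 20 alternatives.

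Beside the named chains, 26 rows are annotated as a collagen alpha chain without a COL symbol, and 8 of them reached 10 counts in 3 libraries. LOC103346860, annotated as collagen alpha-1(XVIII) chain, had a mean of 19.0 CPM in TL-3d, with 16.6, 23.4 and 17.1 CPM compared with 5.86, 7.20 and 8.43 CPM in cont (log2 fold change 1.41, SE 0.30, q = 0.0171). LOC103347362, annotated as collagen alpha-1(XVIII) chain-like, had a mean of 13.8 CPM in TL-3d, with 14.5, 15.5 and 11.5 CPM compared with 4.89, 6.15 and 6.05 CPM in cont (log2 fold change 1.28, q = 0.0497). Of the other 6 rows, LOC108178977, annotated as collagen alpha-2(I) chain-like, was lower at 3 days (log2 fold change -2.74, q = 0.0464), and LOC103346443, annotated as collagen alpha-1(I) chain, was lower at 3 hours (-1.06, q = 0.0481). Both were below 1 CPM in every library. Whether reads were split between these rows is not known.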

How the results depend on the processing

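Of 16 calls of single collagen genes under 20 alternatives, 238 of 320 values kept the call, 82 lost it and 0 changed direction. The number of collagen genes called depended more on the setting. Each count is followed in parentheses by that of all genes in the same fit. At 3 hours it was 1 (6733), and 2 (6716) with DESeq2 size factors, 2 (7534) with the DESeq2 test, 4 (7563) with library size only, 3 (6946) with the replicate block and 3 (6488) with only the groups compared. At 3 days it was 5 (2608), and 3 (2201) with no filter, 12 (4471) with DESeq2 and 0 (0) without both libraries with skeletal muscle transcripts, an alternative chosen after seeing the data. At 14 days it was 0 (0), and 8 (367) with DESeq2. Between TL-3h and TL-3d it was 7 (5537), and 13 (6311) with library size only, 14 (6626) with DESeq2, 13 (5771) with limma-trend, 16 (5831) with the replicate block, 12 (5823) with only the groups compared and 15 (4366) without the muscle libraries. Between TL-3d and TL-14d it was 3 (332), and 8 (1850) with DESeq2, 1 (288) with the replicate block, 0 (15) with only the groups compared and 0 (0) without the muscle libraries. Leaving out 1 library gave 1 to 2, 0 to 11, 0 to 8, 6 to 16 and 0 to 3 calls in these comparisons, and 9 to 20 for the 3 times together. The same fits called 5280 to 7271, 359 to 3778, 0 to 716, 3954 to 6231, 0 to 584 and 6238 to 8536 of all genes. The count of 8 at 14 days came without TL-14d replicate 1, that of 16 without TL-3d replicate 3, and 0 at 3 days without any 1 of cont replicates 1 and 2 or TL-3d replicates 1 and 2, where 359 to 491 of all genes were called. The cause was not tested.

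Directions changed only for values that did not pass. With 1 library left out, the log2 fold change of COL1A1 at 3 days lay between -2.36 and 0.53, and at 14 days between -1.12 and 0.69, where the replicate block gave 0.0263. COL11A1 at 3 days ranged from -1.10 to 6.14, and was -1.38 without the muscle libraries. COL8A2 at 3 hours ranged from -0.34 to 0.67, and was -0.42 with library size only and -0.12 without the muscle libraries. At 3 days it ranged from -0.0185 to 1.45, and was -0.18 without the muscle libraries. Of 18 pairs of libraries with the same replicate number, 8 had deviations correlated over 0.1 (-0.153 to 0.517), so the numbers were not taken to pair the samples.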
